A study of Mus musculus with 18 samples.

Results

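Protocadherins were followed through 6 groups of arrays of cultured mouse motoneurons, as all genes whose symbol in the platform annotation starts with Pcdh. Of 18191 genes measured by a probe set that names a single gene, 35 were protocadherins, and each was represented by its probe set of highest average signal across the 18 arrays. Of these, 23 belong to the gene clusters on chromosome 18 (Pcdhb1 to Pcdhb22 and Pcdhgc4) and 12 lie outside the clusters (Pcdh1, Pcdh7, Pcdh8, Pcdh9, Pcdh10, Pcdh11x, Pcdh12, Pcdh15, Pcdh17, Pcdh18, Pcdh19 and Pcdh20). The alpha cluster was read through 6 probe sets that name 9 or 14 Pcdha genes at once, and these are described apart. RNA came from spinal motoneurons of E12.5 mouse embryos, selected by p75 panning and kept for 7 days in microfluidic chambers, which lead axons into a separate compartment. All cultures received CNTF at 5 ng/ml on both sides and BDNF at 20 ng/ml on the axonal side. The axonal (AX) and the somatodendritic (SD) compartment each had 3 arrays of Smn knockdown cultures (lentivirus with an shRNA against Smn), 3 of empty vector cultures (lentivirus without it) and 3 of untreated wild-type cultures. Smn corresponds to SMN1, whose loss in humans causes spinal muscular atrophy.

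Protocadherins are a large family of cadherin adhesion proteins. Clustered protocadherins are chosen cell by cell through alternative promoters, a choice that involves CTCF and cohesin, and cells with matching sets recognise each other, which lets the neurites of a neuron avoid one another. Genes of the beta cluster are single-exon genes with no shared constant part, whereas alpha and gamma transcripts join a variable exon to constant exons. Non-clustered protocadherins of the delta group have conserved cytoplasmic motifs, and several of them (Pcdh10, Pcdh17 and Pcdh19) recruit the WAVE complex, which drives actin assembly in growing axons and at cell contacts.

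The values are log2 expression as deposited, and a log2 level is compared only for the same probe set across arrays. To judge which values were above noise, 147 probe sets for genes of unrelated tissues, such as olfactory receptors, were used, and their 95th percentile on an array is called its background level. It was 6.01 to 6.40 on the SD arrays, and 7.01 to 7.26 on AX knockdown, 6.41 to 7.06 on AX empty vector and 6.43 to 6.75 on AX wild-type arrays. Between 6120 and 7312 genes exceeded it on AX knockdown, 7071 and 10015 on AX empty vector, 8916 and 10046 on AX wild-type and 10396 and 11369 on SD arrays. Correlation with the SD control arrays was lowest for AX knockdown replicate 1 (0.537) and, among AX controls, for AX empty vector replicate 2 (0.703). It was 0.71 and 0.656 on the other AX knockdown arrays and 0.812 to 0.888 on the other AX controls. In axons, array quality and the knockdown thus cannot be told apart. Smn1 itself exceeded background on 1 of 18 arrays, an AX empty vector array, so the knockdown could not be checked at this signal. All 7 neuron markers and the motoneuron markers Prph, Ngfr, Ret and Foxp1 were above background on all 9 SD arrays, but Chat, Slc18a3, Slc5a7 and Mnx1 were above it on none. Above background in a group means higher than this level on all 3 of its arrays. Tests are limma's, adjusted over all 18191 genes, and a change is one with an adjusted p under 0.05. Whether arrays of a group stem from separate cultures is not stated by the labels, so p-values measure the spread between arrays only, and fewer cells of a type and less RNA per cell cannot be told apart.

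In the somatodendritic compartment 21 of 35 protocadherins were above background on all 9 arrays, 9 of the 12 non-clustered and 12 of the 23 clustered ones. Pcdh20 was above it on all empty vector and wild-type arrays but on no knockdown array, and Pcdhb14 and Pcdhb21 were above it on 3 and 1 of the 9 SD arrays. The other 11, among them Pcdh1, known from airway epithelium, and Pcdh12, a protocadherin of endothelium, were not above it on any SD array. Against empty vector cultures, 1 protocadherin rose and 6 fell in Smn knockdown, 7 of 35 in all, where 28% of all genes were called. The median log2 difference was -0.15 over the 35 members and -0.02 over all genes. By class, 1 non-clustered member rose and 3 fell (median -0.26), and 3 clustered members fell (median -0.12). Without overlap between the groups, 14 members were lower in knockdown and 3 higher, where 23.6% and 19.6% of all genes were.

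**Figure D1:**
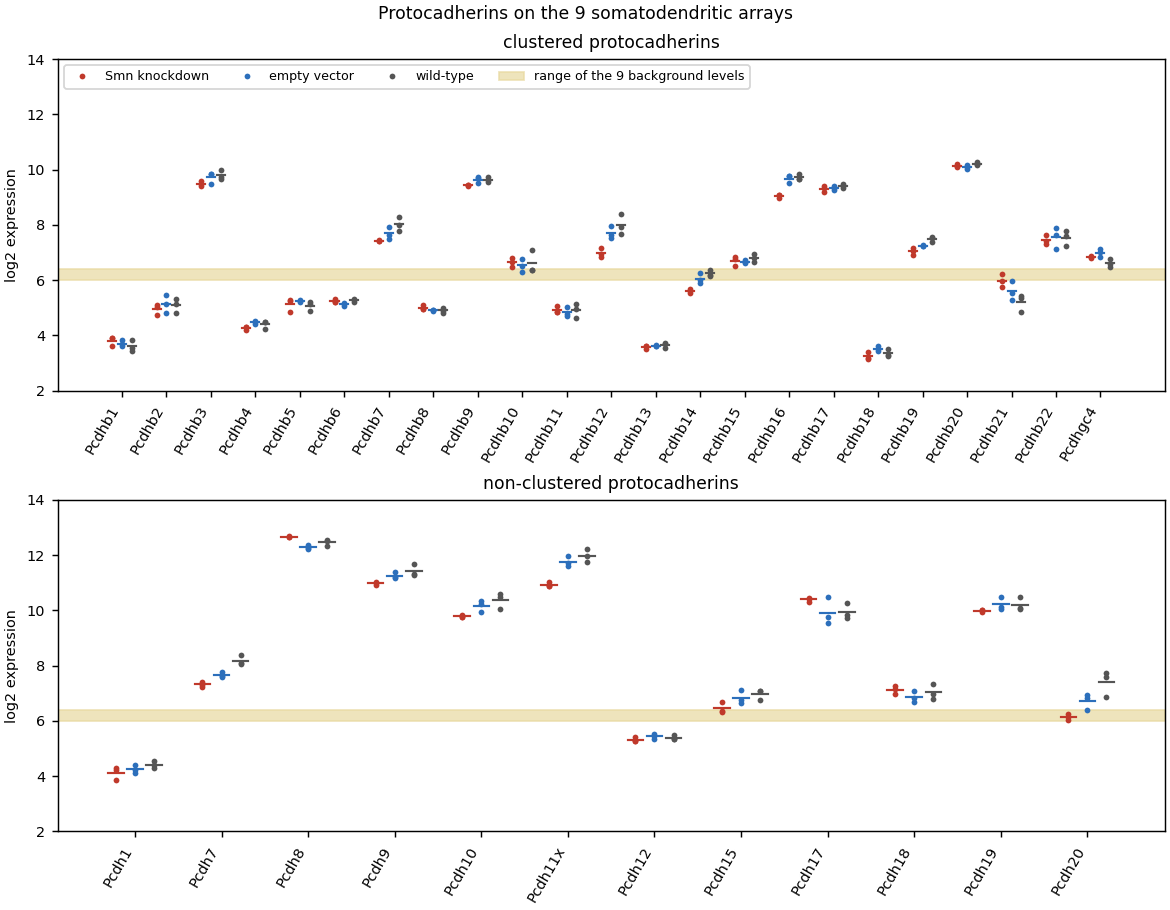
Log2 expression of each protocadherin on the 9 somatodendritic arrays; points are arrays, short lines are means of 3 arrays, and the band spans the background levels of the 9 arrays (6.01 to 6.40). Clustered members are above and non-clustered members below, and Pcdh11x, Pcdh20, Pcdh7, Pcdhb12 and Pcdhb16 show knockdown points below all empty vector and wild-type points.

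Promoters are shown for the non-clustered genes called against empty vector that RefSeq promoter entries covered, so that the sequence upstream of each differing transcript can be read beside its values. Each line gives the 250 bases before the annotated transcription start in GRCm38.p6, read 5′ to 3′ on the strand of the gene, in lower case with any TATAAA in capitals. Pcdh20 lies on the minus strand at chr14:88471397-88471646, Pcdh7 on the plus strand at chr5:57717831-57718080 and Pcdh8 on the minus strand at chr14:79771313-79771562.
Pcdh20: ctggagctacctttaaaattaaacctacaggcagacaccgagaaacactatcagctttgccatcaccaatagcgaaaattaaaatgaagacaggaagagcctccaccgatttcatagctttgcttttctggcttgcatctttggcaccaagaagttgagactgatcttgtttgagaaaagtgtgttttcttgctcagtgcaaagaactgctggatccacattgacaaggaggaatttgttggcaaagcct
Pcdh7: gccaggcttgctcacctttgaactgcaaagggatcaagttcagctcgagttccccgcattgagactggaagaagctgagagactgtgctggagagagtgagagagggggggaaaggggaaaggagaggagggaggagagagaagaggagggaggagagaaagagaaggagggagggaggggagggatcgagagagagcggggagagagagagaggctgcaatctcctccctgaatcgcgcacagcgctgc
Pcdh8: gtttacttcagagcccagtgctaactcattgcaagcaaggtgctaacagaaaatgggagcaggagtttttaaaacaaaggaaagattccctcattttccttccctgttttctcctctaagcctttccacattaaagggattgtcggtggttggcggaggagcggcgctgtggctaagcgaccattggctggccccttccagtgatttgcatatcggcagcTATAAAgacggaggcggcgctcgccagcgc
TATAAA stood in the Pcdh8 window with its first base 30 bases upstream of the start. It was in 12.4% of 32851 promoters of this length, on either strand, and among the members with an entry also in that of Pcdh15. The Pcdh20, Pcdh7 and Pcdh8 windows held 3, 7 and 11 CpG sites, and their GC content was 42.4%, 58.4% and 51.2%. No window of these 3 genes held the GC box GGGCGG, which was in 32.7% of all promoters and in those of Pcdh10, Pcdh17, Pcdh18 and Pcdh19.

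Among the delta-1 type protocadherins, Pcdh11x and Pcdh7 were lower in Smn knockdown than in both control groups on their main probe sets. Pcdh9 was lower in knockdown than in wild-type on its main probe set, but higher on another. Pcdh11x, an X-linked gene of neurons, had 10.89, 10.87 and 11.04 in knockdown, 11.61, 11.98 and 11.72 in empty vector and 11.98, 12.24 and 11.74 in wild-type SD arrays. Every knockdown array lay below every control array. Pcdh11x fell by 0.83 on the log2 scale (SE 0.13, limma adjusted p = 0.000501), 1.78-fold, against empty vector. Against wild-type the difference was -1.05 (SE 0.13, limma adjusted p = 6.26e-05), 2.07-fold. Its other probe set differed by -0.47 (SE 0.17, limma adjusted p = 0.0665 over all 45026 probe sets) against empty vector and was not called.

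Pcdh7, first described in the neural fold of Xenopus, where it acts in adhesion and in axon growth of retinal neurons, had 7.30, 7.24 and 7.42 in knockdown, 7.62, 7.60 and 7.77 in empty vector and 8.05, 8.37 and 8.08 in wild-type SD arrays. The 3 groups were stepped without overlap, and Pcdh7 was the 1 protocadherin that also differed between empty vector and wild-type. The log2 difference was -0.34 (SE 0.10, limma adjusted p = 0.0255) for knockdown against empty vector, -0.85 (SE 0.10, adjusted p = 5.38e-05) for knockdown against wild-type and -0.50 (SE 0.10, adjusted p = 0.0287) for empty vector against wild-type. The call against empty vector was lost without empty vector replicate 3 (adjusted p = 0.0994) and without knockdown replicate 1 (0.0753) or 2 (0.102). Taken as the mean of its 3 probe sets, Pcdh7 differed between empty vector and wild-type by -0.01 (adjusted p = 0.948). The probe sets other than the main one were below background on every SD array, so this mean is mostly of dim signal.

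Pcdh9, a delta-1 type gene of brain and spinal cord, had 10.98, 10.93 and 11.04 in knockdown, 11.18, 11.40 and 11.21 in empty vector and 11.27, 11.68 and 11.31 in wild-type SD arrays on its main probe set. The knockdown arrays were lowest, by -0.28 (SE 0.11, limma adjusted p = 0.088) against empty vector and -0.44 (SE 0.11, adjusted p = 0.00955) against wild-type. Another probe set of Pcdh9 went the other way, with 7.48, 7.39 and 7.21 in knockdown, 6.31, 6.32 and 6.22 in empty vector and 6.04, 6.15 and 6.23 in wild-type SD arrays, a difference of 1.08 (SE 0.10, limma adjusted p = 7.49e-06) against empty vector. On that probe set the knockdown arrays overlapped with neither control. Pcdh9 therefore has no settled direction here, and what each probe set reads was not tested.

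Pcdh20, a less studied non-clustered gene, had 6.05, 6.16 and 6.24 in knockdown, 6.93, 6.41 and 6.84 in empty vector and 7.58, 7.75 and 6.86 in wild-type SD arrays. No knockdown array exceeded its background level, while all control arrays did. Pcdh20 fell at least 1.38-fold against empty vector (log2 difference -0.58, SE 0.20, limma adjusted p = 0.0465) and at least 2.19-fold against wild-type (-1.25, SE 0.20, adjusted p = 0.000371). The call against empty vector was lost in 5 of the 6 fits that leave out 1 of the compared arrays (all but the one without empty vector replicate 2), with adjusted p between 0.0774 and 0.152, and with adjustment over all 45026 probe sets (0.0574).

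Of the delta-2 type members, Pcdh8 was the 1 protocadherin that rose against empty vector. Pcdh8, whose rat counterpart is induced by neuronal activity and draws N-cadherin into the cell through the kinase Taok2, had 12.65, 12.69 and 12.65 in knockdown, 12.23, 12.27 and 12.37 in empty vector and 12.52, 12.55 and 12.34 in wild-type SD arrays. Knockdown arrays were above all controls, and empty vector arrays lay mostly below wild-type. Pcdh8 rose by 0.37 (SE 0.09, limma adjusted p = 0.00598), 1.30-fold, against empty vector, and differed by 0.20 (SE 0.09, adjusted p = 0.0979) from wild-type. Its second probe set had 10.92, 11.00 and 11.09 in knockdown, 10.35, 10.45 and 10.54 in empty vector and 10.56, 10.75 and 10.55 in wild-type SD arrays. That probe set rose by 0.56 (SE 0.09, limma adjusted p = 0.000983) against empty vector, and its knockdown arrays were above all wild-type arrays as well.

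Pcdh10, which mice need for axon growth of striatal neurons, had 9.76, 9.78 and 9.83 in knockdown, 9.93, 10.34 and 10.24 in empty vector and 10.48, 10.61 and 10.07 in wild-type SD arrays. All knockdown values lay below all controls, with a difference of -0.39 (SE 0.14, limma adjusted p = 0.0579) against empty vector and -0.60 (SE 0.14, adjusted p = 0.00471) against wild-type. Of its other 5 probe sets 3 were called lower against empty vector. The larger of these differences was -0.88 (SE 0.11, limma adjusted p = 0.00014), on a probe set at 7.35, 7.56 and 7.47 in knockdown and 8.26, 8.21 and 8.55 in empty vector SD arrays. Another, at 8.77, 8.77 and 8.91 in knockdown and 9.45, 9.61 and 9.64 in empty vector SD arrays, differed by -0.75 (SE 0.13, limma adjusted p = 0.000981), and the remaining one was below background.

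Pcdh17 and Pcdh19, the other WAVE-binding members, did not pass the test in the SD compartment. Pcdh17, which guides joint extension of amygdala axons in mice, had 10.41, 10.32 and 10.46 in knockdown, 9.75, 10.47 and 9.55 in empty vector and 9.71, 10.26 and 9.83 in wild-type SD arrays. A single empty vector array reached the highest knockdown array, and the difference was 0.48 (SE 0.20, limma adjusted p = 0.105) against empty vector and 0.47 (SE 0.20, adjusted p = 0.095) against wild-type. Pcdh19, mutated in a human epilepsy, had 9.96, 10.02 and 10.01 in knockdown, 10.07, 10.13 and 10.50 in empty vector and 10.09, 10.48 and 10.07 in wild-type SD arrays. Its knockdown arrays were lowest by a narrow margin, -0.24 (SE 0.13, limma adjusted p = 0.217) against empty vector. Another probe set of Pcdh19 had 10.33, 10.33 and 10.42 in knockdown, 10.28, 10.40 and 10.63 in empty vector and 10.06, 10.51 and 10.43 in wild-type SD arrays, and there the groups overlapped. Pcdh18, which binds the adaptor Dab1, had 7.14, 7.25 and 6.99 in knockdown, 6.84, 7.08 and 6.68 in empty vector and 6.79, 7.34 and 6.99 in wild-type SD arrays, and its groups overlapped.

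Pcdh15, part of the tip links of inner ear hair cells, had 6.37, 6.32 and 6.69 in knockdown, 6.77, 6.64 and 7.12 in empty vector and 7.10, 7.07 and 6.75 in wild-type SD arrays, close above background. A single knockdown array overlapped with empty vector, and the differences were -0.38 (SE 0.14, limma adjusted p = 0.0718) against empty vector and -0.51 (SE 0.14, adjusted p = 0.0148) against wild-type. The call against wild-type was lost without wild-type replicate 1 or 2 or without knockdown replicate 1 or 2 (adjusted p between 0.0518 and 0.0689). Another probe set of Pcdh15 had 5.50, 5.63 and 5.97 in knockdown, 7.07, 6.05 and 6.82 in empty vector and 6.66, 7.95 and 7.18 in wild-type SD arrays. On that probe set every knockdown array lay below background and below every control array, and all wild-type arrays exceeded background.

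**Figure D2:**
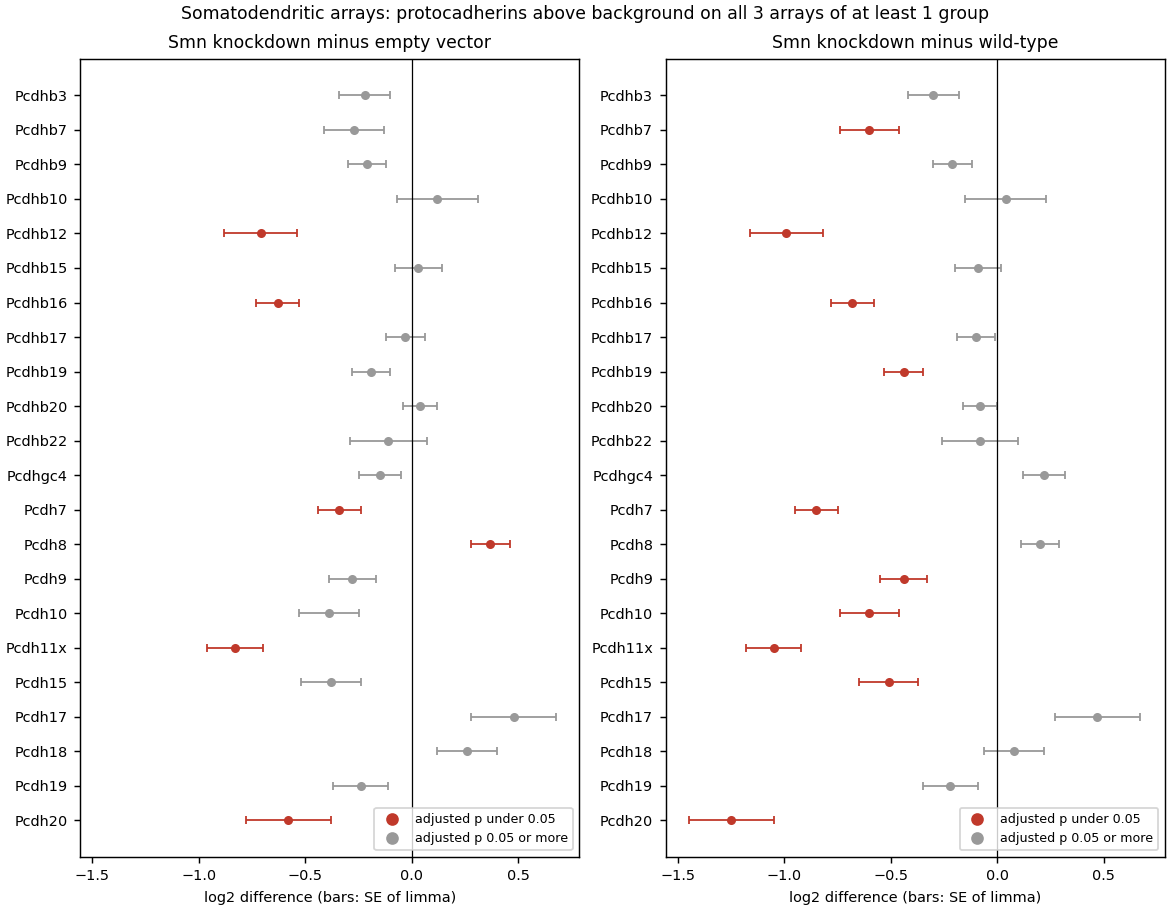
Log2 difference of Smn knockdown minus empty vector (left) and minus wild-type (right) on somatodendritic arrays, with limma's standard error as bars, for the 22 protocadherins above background in at least 1 of the 3 groups. Red marks adjusted p under 0.05, and Pcdh8 is the 1 red point right of 0 on the left.

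In the beta cluster, Pcdhb12 and Pcdhb16 were the members above background that fell against both controls in SD arrays. Beta genes are close copies of one another, so a probe set may take signal from a neighbour, and each value is that of its probe set. Pcdhb12 had 7.18, 6.83 and 6.96 in knockdown, 7.52, 7.64 and 7.95 in empty vector and 7.92, 8.38 and 7.66 in wild-type SD arrays. All knockdown values lay below all control values, with a difference of -0.71 (SE 0.17, limma adjusted p = 0.00796), 1.64-fold, against empty vector and -0.99 (SE 0.17, adjusted p = 0.000661), 1.99-fold, against wild-type. Pcdhb16 had 9.07, 8.97 and 9.09 in knockdown, 9.50, 9.76 and 9.77 in empty vector and 9.66, 9.85 and 9.67 in wild-type SD arrays. The empty vector and wild-type arrays of Pcdhb16 overlapped, and knockdown arrays were lower, with a difference of -0.63 (SE 0.10, limma adjusted p = 0.000459), 1.55-fold, against empty vector and -0.68 (SE 0.10, adjusted p = 0.000181), 1.61-fold, against wild-type. Pcdhb14, read by a probe set whose suffix marks possible cross-reading, had 5.62, 5.54 and 5.68 in knockdown, 5.91, 6.26 and 5.99 in empty vector and 6.20, 6.15 and 6.38 in wild-type SD arrays. It was called against both controls (-0.44 and -0.63, SE 0.11 each, limma adjusted p = 0.00818 and 0.000524) but was above background in no SD group, so no fold is given.

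Pcdhb7 and Pcdhb19 passed the test against wild-type alone. Pcdhb7 had 7.41, 7.45 and 7.41 in knockdown, 7.50, 7.65 and 7.94 in empty vector and 8.01, 8.30 and 7.76 in wild-type SD arrays, a difference of -0.27 (SE 0.14, limma adjusted p = 0.171) against empty vector and -0.60 (SE 0.14, adjusted p = 0.00435) against wild-type. Pcdhb19 had 7.18, 7.06 and 6.92 in knockdown, 7.25, 7.28 and 7.22 in empty vector and 7.57, 7.51 and 7.39 in wild-type SD arrays, a difference of -0.19 (SE 0.09, limma adjusted p = 0.138) against empty vector and -0.44 (SE 0.09, adjusted p = 0.00237) against wild-type. For both genes the empty vector arrays lay mostly or wholly between knockdown and wild-type. Pcdhb21, below background in all 3 groups, was higher by 0.77 (SE 0.19, limma adjusted p = 0.00745) against wild-type and is given no fold.

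The remaining beta probe sets well above background in SD arrays did not pass the test against empty vector. Pcdhb20 had 10.12, 10.19 and 10.09 in knockdown, 10.03, 10.16 and 10.10 in empty vector and 10.19, 10.29 and 10.15 in wild-type SD arrays. Pcdhb17 had 9.20, 9.39 and 9.35 in knockdown, 9.26, 9.33 and 9.42 in empty vector and 9.42, 9.49 and 9.32 in wild-type SD arrays. Both varied little over the 9 arrays and overlapped between groups, with differences of 0.04 and -0.03 against empty vector. For Pcdhb9 the values were 9.44, 9.44 and 9.41 in knockdown, 9.50, 9.72 and 9.70 in empty vector and 9.75, 9.61 and 9.56 in wild-type SD arrays. For Pcdhb3 they were 9.60, 9.48 and 9.39 in knockdown, 9.48, 9.84 and 9.83 in empty vector and 9.74, 9.97 and 9.65 in wild-type SD arrays. Pcdhb9 knockdown arrays were lowest (-0.21, limma adjusted p = 0.104), and Pcdhb3 touched the empty vector range (-0.22, adjusted p = 0.192).

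The clustered members closer to background overlapped between knockdown and empty vector. Pcdhb22 had 7.65, 7.32 and 7.40 in knockdown, 7.64, 7.90 and 7.14 in empty vector and 7.78, 7.58 and 7.24 in wild-type SD arrays. In Pcdhb10 the values were 6.48, 6.81 and 6.65 in knockdown, 6.52, 6.30 and 6.77 in empty vector and 7.10, 6.37 and 6.35 in wild-type SD arrays. The Pcdhb15 probe set read 6.84, 6.76 and 6.52 in knockdown, 6.66, 6.62 and 6.73 in empty vector and 6.80, 6.95 and 6.64 in wild-type SD arrays. None of the 3 differed by more than 0.12 in either direction against empty vector. Pcdhgc4, the gamma isoform that mice need for survival of some neurons, had 6.84, 6.80 and 6.86 in knockdown, 6.82, 7.12 and 7.00 in empty vector and 6.46, 6.59 and 6.78 in wild-type SD arrays. Its wild-type arrays were lowest, with differences of 0.22 (SE 0.10, limma adjusted p = 0.12) for knockdown and 0.37 (SE 0.10, adjusted p = 0.0992) for empty vector against wild-type.

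Against wild-type SD arrays, 1 protocadherin rose and 11 fell in knockdown, 12 of 35, where 15.6% of all genes rose, 20.4% fell and 36% were called in all. In empty vector against wild-type 1 of 35 fell, Pcdh7, where 1.52% of all genes fell and 2% were called in all. These comparisons share arrays with the one against empty vector and are not independent of it. The members that fell against both controls were Pcdh11x, Pcdh20, Pcdh7, Pcdhb12, Pcdhb14 and Pcdhb16. When all 18 arrays were fitted together, with 1 spread for both compartments, the members called in SD knockdown numbered 0 against either control.

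Other features of the SD arrays differed between the groups as well. Of 13 microglia markers 12 rose against empty vector, with a mean level per array of 7.85 to 8.23 in knockdown, 5.79 to 6.07 in empty vector and 7.52 to 7.62 in wild-type. Against wild-type 8 rose and 1 fell in knockdown (median 0.49), where 36% of all genes were called. In empty vector against wild-type 0 rose and 9 fell (median -1.51), where 2% of all genes were called. For this list the empty vector arrays thus lay apart from both other groups. In knockdown, 6 of 9 astrocyte, 5 of 8 oligodendrocyte-lineage, 3 of 11 fibroblast and 1 of 8 endothelial markers fell against empty vector. Of the 7 neuron markers 3 fell, and of the 11 motoneuron markers 1 rose and 2 fell, with mean levels per array of 11.21 to 11.27 in knockdown and 11.27 to 11.40 in empty vector for the neuron list. In this comparison 28% of all genes were called in either direction, and the fibroblast, endothelial and motoneuron counts were near or below that share. Mean levels per array were 8.54 to 8.98 in knockdown and 9.15 to 9.35 in empty vector for astrocyte markers, and 6.73 to 7.42 in knockdown and 7.76 to 8.25 in empty vector for oligodendrocyte-lineage markers. The fibroblast list had 5.89 to 6.14 in knockdown and 6.66 to 6.87 in empty vector arrays. The difference between the 3′ and 5′ Gapdh probe sets, a sign of RNA integrity and amplification, was 3.99 to 4.12 in knockdown, 3.53 to 3.68 in empty vector and 3.11 to 3.61 in wild-type SD arrays. On AX arrays this Gapdh difference was 2.80 to 3.60 in knockdown, 1.44 to 3.91 in empty vector and 2.15 to 3.27 in wild-type. Knockdown arrays are titled by a different naming scheme than both control groups, so any separate handling and the knockdown cannot be told apart. The part of these features in the protocadherin differences was not tested.

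Probe sets shared by the alpha cluster differed in direction. The first, which names 14 Pcdha genes, had 12.07, 12.23 and 12.14 in knockdown, 11.73, 11.92 and 11.77 in empty vector and 11.55, 11.80 and 11.65 in wild-type SD arrays. Knockdown arrays were highest, by 0.34 (SE 0.10, limma adjusted p = 0.0232) against empty vector and 0.48 (SE 0.10, adjusted p = 0.00234) against wild-type. Another probe set for the same 14 genes had 7.43, 6.89 and 7.13 in knockdown, 6.10, 6.35 and 5.53 in empty vector and 5.91, 5.55 and 5.67 in wild-type SD arrays, and rose by 1.16 (SE 0.19, limma adjusted p = 0.000911) against empty vector. The remaining one for 14 genes had 9.35, 9.49 and 9.42 in knockdown, 9.83, 9.59 and 9.93 in empty vector and 9.42, 10.01 and 9.78 in wild-type SD arrays, a difference of -0.37 (SE 0.14, limma adjusted p = 0.086) against empty vector. It was the lower one in knockdown, and its groups overlapped with wild-type. The 3 probe sets that name 9 Pcdha genes were above background on no SD array. Over all probe sets, 20.6% were called in this comparison.

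**Figure D3:**
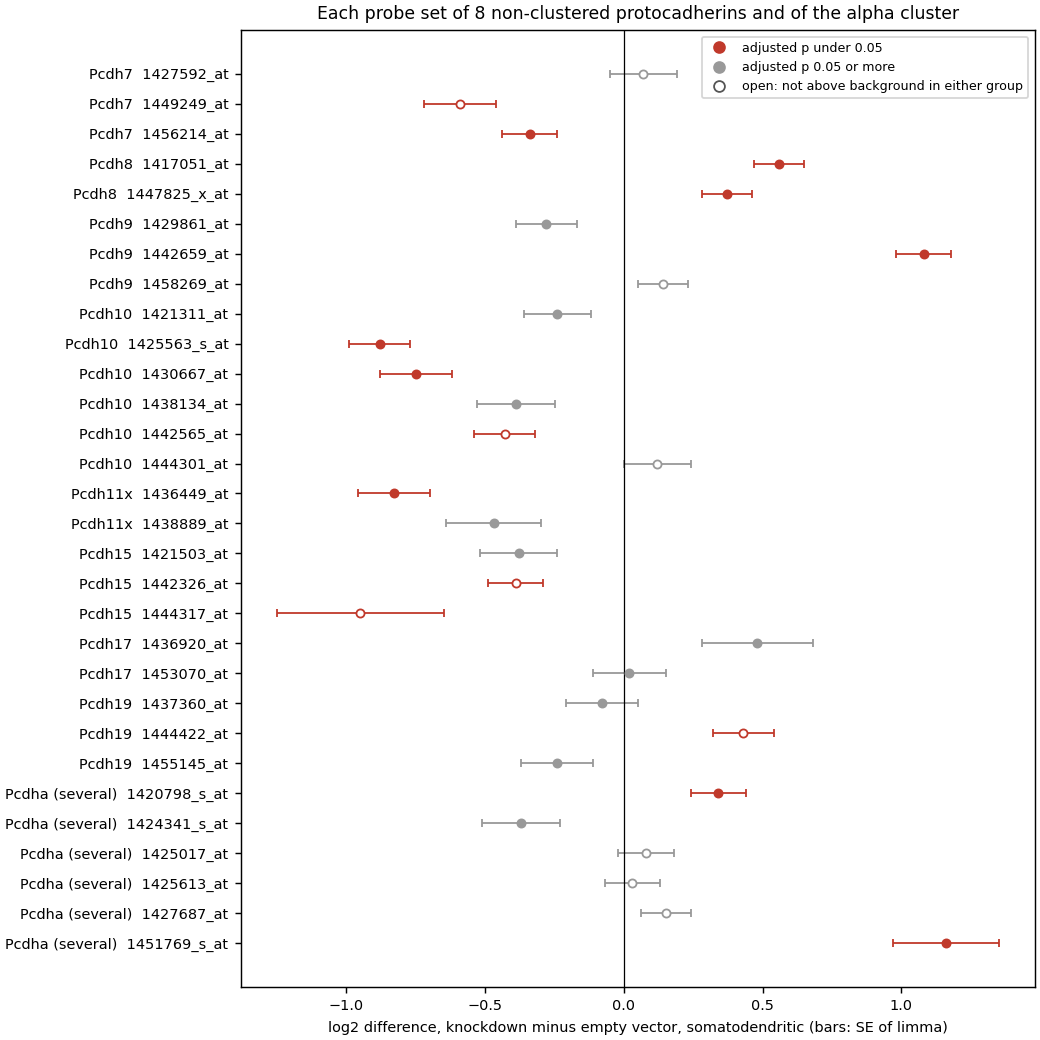
Log2 difference of Smn knockdown minus empty vector on somatodendritic arrays for each probe set of 8 non-clustered protocadherins and for the 6 probe sets that name several Pcdha genes, with limma's standard error as bars. Red marks adjusted p under 0.05 over all probe sets, open points were above background in neither group, and the probe sets of Pcdh9 and of the alpha cluster lie on both sides of 0.

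Regulators and partners of protocadherins were read from gene lists in the same SD comparison. Of 11 measured regulators of the clusters, 1 rose and 5 fell against empty vector (median -0.23), where 28% of all genes were called and their median was -0.02. Those that fell were the cohesin subunit Stag1 (-0.66, SE 0.08), the cohesin loader Nipbl (-0.65, SE 0.10), the DNA methyltransferase Dnmt3b (-0.43, SE 0.11), and Ctcf and the silencing factor Smchd1 (-0.38 each, SE 0.10). Rad21, another cohesin subunit, rose by 0.38 (SE 0.10). Limma adjusted p for these 6 genes was between 9.22e-05 and 0.0167. Of 17 cytoplasmic and membrane partners 4 rose and 6 fell (median 0.01), beside the same 28% of all genes. The WAVE complex members Abi1, Wasf1 and Nckap1 fell by 0.81 (SE 0.10), 0.43 (SE 0.08) and 0.25 (SE 0.08), and Cyfip2 of the same complex rose by 0.55 (SE 0.14). Ret, the receptor kinase reported to bind clustered protocadherins, fell by 0.75 (SE 0.12), and Fyn, a Src-family kinase, rose by 0.34 (SE 0.09). Limma adjusted p for these partners was between 6.55e-05 and 0.0281. Among 5 shedding genes, the protease Adam10 fell by 0.32 (SE 0.09, limma adjusted p = 0.0184), and the gamma-secretase subunits Psen2, Ncstn, Aph1a and Psenen were not called.

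Of 29 other cadherin-family genes 4 rose and 11 fell in SD knockdown against empty vector (median -0.08), where 28% of all genes were called. The type II classical cadherins Cdh10, Cdh9 and Cdh7 fell by 1.32 (SE 0.13), 1.00 (SE 0.16) and 0.96 (SE 0.10), and Cdh2 (N-cadherin) fell by 0.33 (SE 0.11). Celsr3 and Celsr2, seven-pass cadherins, rose by 0.40 (SE 0.11) and 0.33 (SE 0.10). Clstn2 fell by 0.57 (SE 0.08), whereas Clstn3, also a calsyntenin of synapses, rose by 0.35 (SE 0.10). Limma adjusted p for these genes was between 1.88e-05 and 0.0369. Members of the calsyntenin subfamily thus differed in sign.

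In the axonal compartment fewer protocadherins exceeded background, and fewest in Smn knockdown. On single arrays 4, 7 and 4 of the 35 were above background in knockdown, 13, 10 and 20 in empty vector and 12, 14 and 14 in wild-type. Of all genes, 6120, 6557 and 7312 were above background in knockdown, 8275, 7071 and 10015 in empty vector and 10046, 8916 and 9490 in wild-type. The counts over all genes were thus also low in knockdown, with an empty vector array in the same range. Judged by its main probe set and on all 3 arrays of a group, 2 members were above it in knockdown (Pcdh17 and Pcdhb14), 8 in empty vector (Pcdh8, Pcdh9, Pcdh11x, Pcdh17, Pcdh19, Pcdhb14, Pcdhb17 and Pcdhb20) and 8 in wild-type (Pcdh8, Pcdh9, Pcdh11x, Pcdh17, Pcdh18, Pcdh19, Pcdhb16 and Pcdhb17). Another probe set of Pcdh10 was above background on all 9 AX arrays, which makes these counts 3, 9 and 9 over all probe sets of the members. The main probe set of Pcdh8 has a suffix that marks possible cross-reading. Its second probe set was not above background on all 3 arrays of any AX group, with 8.42, 5.87 and 8.61 in empty vector and 6.28, 7.77 and 5.38 in wild-type. The background level itself was higher on the knockdown arrays, as given above, and its part in these counts was not tested. Against empty vector 1 of 35 members was called, Pcdhb17, where 0.176% of all genes were. Against wild-type Pcdhb17 was again the 1 member called, where 0.099% of all genes were. With all 18 arrays in 1 fit and 1 spread for both compartments, 3 members were called higher and 4 lower against empty vector (3763 genes in all), and 3 higher and 6 lower against wild-type (4483 genes in all). In empty vector against wild-type limma called 0 of 35 members and 0% of all genes, under every setting tried. At an unadjusted p under 0.05 these were 2 members, Pcdhb7 and Pcdhb20, and 603 genes (3.31%).

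**Figure D4:**
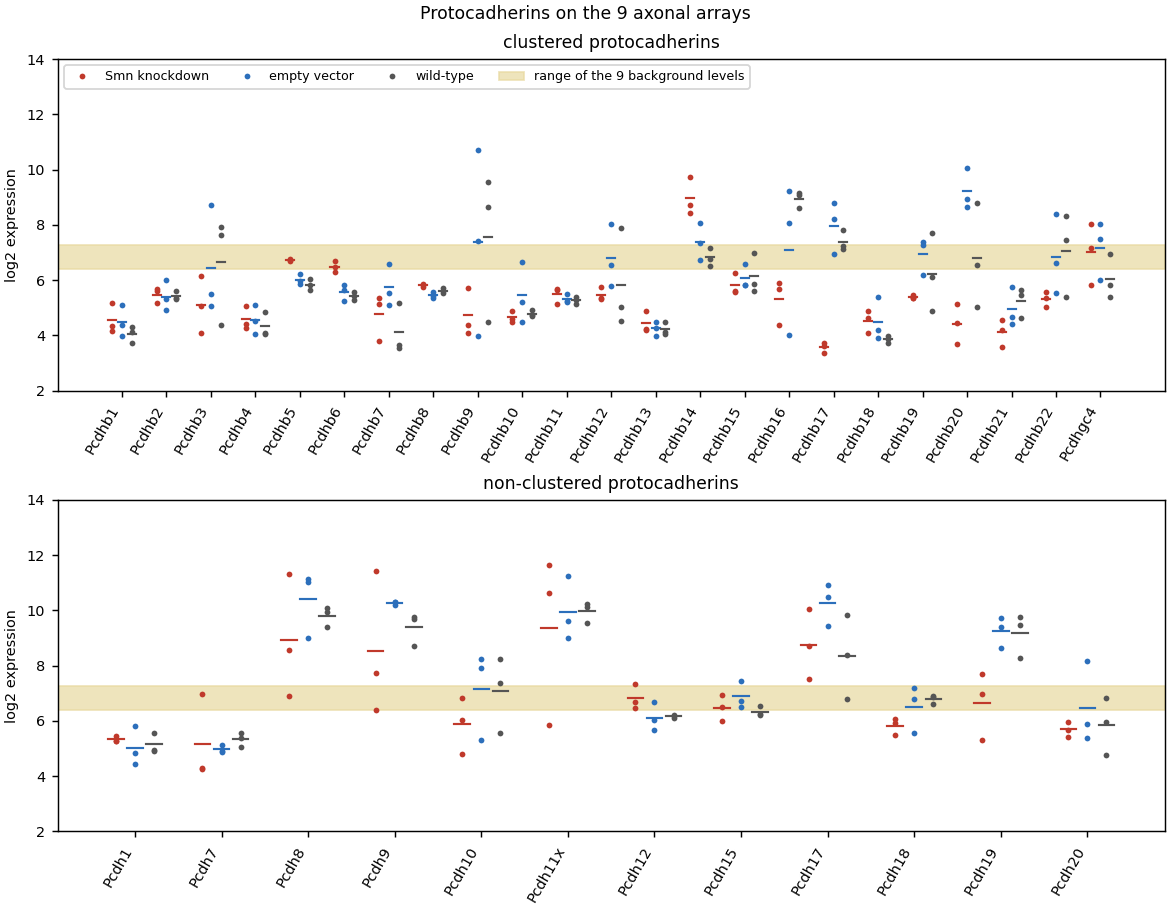
Log2 expression of each protocadherin on the 9 axonal arrays; points are arrays, short lines are means of 3 arrays, and the band spans the background levels of the 9 arrays (6.41 to 7.26). Replicates lie much farther apart than in the somatodendritic plot, and the 3 knockdown points of Pcdhb17 lie between 3.36 and 3.73, below every control point.

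Pcdhb17 had 3.36, 3.63 and 3.73 in knockdown, 6.93, 8.79 and 8.20 in empty vector and 7.24, 7.81 and 7.11 in wild-type AX arrays. All knockdown arrays lay far below background, and all control arrays exceeded it, 1 empty vector array by less than 0.1. Pcdhb17 fell at least 1.76-fold against empty vector (log2 difference -4.40, SE 0.47, limma adjusted p = 0.0376) and at least 1.17-fold against wild-type (-3.82, SE 0.47, adjusted p = 0.0371). The call against empty vector was lost without empty vector replicate 3 (adjusted p = 0.122) and without knockdown replicate 1 (0.0766) or 3 (0.0567). Without both AX knockdown replicate 1 and AX empty vector replicate 2 it was -3.89 (adjusted p = 0.0873). Leaving out any of the wild-type arrays, or knockdown replicate 1 or 3, ended the call against wild-type (adjusted p between 0.0652 and 0.183).

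Pcdhb20 had 4.44, 5.13 and 3.69 in knockdown, 10.07, 8.92 and 8.66 in empty vector and 5.04, 8.80 and 6.53 in wild-type AX arrays. Knockdown arrays were below all empty vector arrays but overlapped with wild-type, with differences of -4.80 (SE 0.89, limma adjusted p = 0.0658) and -2.36 (SE 0.89, adjusted p = 0.182). Pcdhb16 had 4.39, 5.90 and 5.69 in knockdown, 9.24, 4.03 and 8.05 in empty vector and 9.14, 8.60 and 9.08 in wild-type AX arrays. Here knockdown lay below all wild-type arrays (-3.62, SE 1.16, limma adjusted p = 0.133) but above an empty vector array at 4.03. Pcdhb9 had 4.38, 5.73 and 4.09 in knockdown, 10.71, 3.98 and 7.41 in empty vector and 4.48, 8.65 and 9.55 in wild-type AX arrays, with both control groups spread over more than 5 log2 units.

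Pcdhb14 ran the other way, with 9.75, 8.72 and 8.44 in knockdown, 7.36, 8.06 and 6.74 in empty vector and 7.16, 6.78 and 6.52 in wild-type AX arrays. Its knockdown arrays were above all control arrays, by 1.58 (SE 0.45, limma adjusted p = 0.131) against empty vector and 2.15 (SE 0.45, adjusted p = 0.0663) against wild-type. The same groups stood in the same order in the background level, and the part of that in Pcdhb14 was not tested. The second probe set of Pcdhb14 had 3.34, 3.68 and 3.17 in knockdown, 3.32, 3.50 and 3.94 in empty vector and 3.57, 3.26 and 3.35 in wild-type AX arrays, below background on every array.

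Other beta and gamma members were above background on single AX arrays. Pcdhb3 had 5.06, 6.15 and 4.10 in knockdown, 5.48, 5.08 and 8.72 in empty vector and 4.38, 7.93 and 7.64 in wild-type AX arrays. Pcdhb12 had 5.75, 5.32 and 5.36 in knockdown, 6.56, 5.78 and 8.04 in empty vector and 7.87, 5.03 and 4.52 in wild-type AX arrays. Empty vector replicate 3 was the highest of the 9 arrays for both. Pcdhb19 had 5.34, 5.45 and 5.34 in knockdown, 7.28, 6.18 and 7.38 in empty vector and 4.89, 7.71 and 6.11 in wild-type AX arrays. Pcdhb22 had 5.37, 5.04 and 5.56 in knockdown, 6.62, 5.52 and 8.41 in empty vector and 8.33, 5.40 and 7.46 in wild-type AX arrays. For these 2 as well no knockdown array exceeded background, whereas 3 control arrays did. Pcdhb10 had 4.89, 4.60 and 4.48 in knockdown, 5.22, 4.48 and 6.66 in empty vector and 4.73, 4.70 and 4.93 in wild-type AX arrays. Pcdhb7 had 5.15, 3.79 and 5.34 in knockdown, 5.11, 5.53 and 6.59 in empty vector and 3.65, 3.53 and 5.17 in wild-type AX arrays. Each of these exceeded background on empty vector replicate 3 alone. Pcdhb15 had 6.27, 5.61 and 5.56 in knockdown, 5.84, 6.57 and 5.84 in empty vector and 5.62, 5.86 and 6.98 in wild-type AX arrays. Pcdhgc4 had 7.18, 8.03 and 5.84 in knockdown, 6.01, 8.04 and 7.47 in empty vector and 5.38, 5.83 and 6.93 in wild-type AX arrays. Their groups overlapped, and neither passed the test.

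Among the non-clustered members in AX arrays, Pcdh17 was above background on all 9 arrays. It had 10.04, 7.52 and 8.73 in knockdown, 10.50, 10.91 and 9.43 in empty vector and 8.37, 6.80 and 9.84 in wild-type AX arrays, and the groups overlapped. Pcdh19 had 5.30, 7.70 and 6.99 in knockdown, 8.64, 9.41 and 9.74 in empty vector and 9.47, 8.28 and 9.76 in wild-type AX arrays. All knockdown values of Pcdh19 lay below all controls, with differences on the log2 scale of -2.60 (SE 0.66, limma adjusted p = 0.109) against empty vector and -2.51 (SE 0.66, adjusted p = 0.0911) against wild-type, short of the threshold. Another probe set of Pcdh19 had 6.44, 6.03 and 5.69 in knockdown, 7.91, 5.41 and 10.30 in empty vector and 9.30, 8.28 and 9.52 in wild-type AX arrays, and there an empty vector array lay below all knockdown arrays. Pcdh10, the third WAVE-binding member, had 6.03, 6.84 and 4.81 in knockdown, 8.25, 5.30 and 7.91 in empty vector and 5.58, 8.24 and 7.39 in wild-type AX arrays, and was above background on 4 of 9 on its main probe set. Another probe set of Pcdh10 was above background on all 9 AX arrays, with 9.31, 9.54 and 8.09 in knockdown, 7.32, 8.55 and 7.97 in empty vector and 8.25, 7.39 and 8.19 in wild-type. Its groups overlapped, and its difference of 1.04 (SE 0.48, limma adjusted p = 0.316 over all 45026 probe sets) against empty vector had the opposite sign, so Pcdh10 has no settled direction in axons.

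On their main probe sets Pcdh9, Pcdh11x and Pcdh8 had 1 AX knockdown array each below background. Pcdh9 had 6.41, 11.44 and 7.72 in knockdown, 10.32, 10.20 and 10.31 in empty vector and 8.72, 9.77 and 9.69 in wild-type AX arrays. Pcdh11x had 11.64, 10.62 and 5.84 in knockdown, 8.99, 11.23 and 9.63 in empty vector and 10.13, 10.23 and 9.53 in wild-type AX arrays. Pcdh8 had 6.91, 11.31 and 8.57 in knockdown, 11.04, 9.0 and 11.15 in empty vector and 9.96, 10.08 and 9.40 in wild-type AX arrays. On each of these 3 probe sets the highest knockdown array exceeded every control array, while the lowest was below background. From lowest to highest, knockdown spanned more than 4 log2 units, and no difference was called. For Pcdh9 and Pcdh8 the low array was knockdown replicate 1, and for Pcdh11x it was replicate 3. Other probe sets had other low arrays in AX knockdown, with 5.91, 8.19 and 6.98 for Pcdh11x and 5.94, 4.89 and 8.31 for Pcdh9. The second probe set of Pcdh8 had 4.20, 7.78 and 6.61 in AX knockdown. Its highest knockdown array lay below empty vector arrays at 8.42 and 8.61.

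The rest of the non-clustered members were at or near background in axons. Pcdh18 had 5.50, 5.92 and 6.08 in knockdown, 6.78, 5.58 and 7.20 in empty vector and 6.85, 6.90 and 6.61 in wild-type AX arrays. Pcdh20 had 5.98, 5.43 and 5.68 in knockdown, 8.16, 5.39 and 5.88 in empty vector and 6.82, 5.96 and 4.77 in wild-type AX arrays. On these probe sets Pcdh18 was above background on all 3 wild-type and no knockdown arrays, and Pcdh20 on 2 control arrays. Another probe set of Pcdh18 was above it on 1 array of each group, at 7.39 in knockdown, 8.84 in empty vector and 7.82 in wild-type. Pcdh15 had 6.49, 6.95 and 6.00 in knockdown, 6.71, 7.45 and 6.50 in empty vector and 6.24, 6.53 and 6.20 in wild-type AX arrays. Pcdh7 had 4.28, 6.99 and 4.25 in knockdown, 4.89, 4.91 and 5.12 in empty vector and 5.05, 5.40 and 5.56 in wild-type AX arrays. Pcdh7 exceeded background on no AX array. The 12 members above background in no group (Pcdh1, Pcdh12 and 10 of the beta cluster) lay between 3.15 and 7.35 over all 18 arrays.

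Alpha-cluster probe sets differed in direction in axons as well. The probe set for 14 Pcdha genes that was lower in SD knockdown had 4.34, 4.08 and 4.22 in knockdown, 6.99, 4.82 and 8.61 in empty vector and 6.50, 8.65 and 7.36 in wild-type AX arrays. Its knockdown arrays lay below all controls, with a difference of -2.59 (SE 0.88, limma adjusted p = 0.195) against empty vector and -3.29 (SE 0.88, adjusted p = 0.0969) against wild-type, and neither was called. The first one described for these genes had 9.68, 10.62 and 9.70 in knockdown, 10.39, 9.89 and 10.14 in empty vector and 9.98, 10.18 and 10.95 in wild-type AX arrays, above background on all 9, with overlapping groups. A probe set for 9 Pcdha genes, below background on every SD array, had 8.03, 7.58 and 7.55 in knockdown, 6.90, 7.54 and 5.85 in empty vector and 6.62, 6.39 and 6.29 in wild-type AX arrays. All its knockdown values were above background and above all controls, by 0.95 (SE 0.41, limma adjusted p = 0.285) against empty vector and 1.28 (SE 0.41, adjusted p = 0.138) against wild-type, and neither was called. Another probe set for 9 Pcdha genes, above background on 2 AX arrays, had means of 7.12 in knockdown, 6.51 in empty vector and 6.09 in wild-type. The background level was also highest on AX knockdown arrays, and its part in these 2 probe sets was not tested.

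Of the lists, limma called 0 genes in AX knockdown against empty vector. At an unadjusted p under 0.05, where 18.2% of all genes were, these were 2 of 11 cluster regulators, 4 of 17 partners (Wasf1, Cyfip2, Nckap1 and Rac1), 1 of 5 shedding genes and 8 of 29 other cadherins. Among cell type markers they were 4 of 13 microglia, 2 of 11 motoneuron, 1 of 7 neuron, 1 of 9 astrocyte, 1 of 8 oligodendrocyte-lineage, 1 of 8 endothelial and 0 of 11 fibroblast markers. The mean level of the microglia list was 6.65 to 9.04 on AX knockdown, 5.90 to 6.37 on AX empty vector and 6.92 to 9.94 on AX wild-type arrays. The neuron list had 8.47 to 9.90 on AX knockdown, 9.31 to 10.39 on AX empty vector and 9.02 to 10.11 on AX wild-type arrays. The part of either in the axonal values was not tested.

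Axonal and somatodendritic arrays were brought to a common distribution separately by the authors, so a difference between compartments compares values normalized apart. The tests between compartments also took 1 spread for both, although axonal replicates lay farther apart. In knockdown cultures 10 of 35 protocadherins were higher and 18 lower in axons, where 34% of all genes were higher, 27.7% lower and 61.7% called in all. In empty vector cultures 8 were higher and 7 lower, where these shares were 23.7%, 18.2% and 42%. In wild-type cultures 4 were higher and 9 lower, where the shares were 14.9%, 14.2% and 29.1%. When all 18 arrays were normalized together these counts were 7 and 16, 2 and 2, and 0 and 5. Of the members higher in axons, 9 of 10 in knockdown, 7 of 8 in empty vector and 4 of 4 in wild-type cultures were below background in both compartments, and the exception was Pcdhb14. Median differences of the members were -1.51 in knockdown, -0.35 in empty vector and -0.65 in wild-type cultures, where those of all genes were 0.13, 0.17 and 0.17.

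Lower in axons in all 3 kinds of culture were Pcdh7, Pcdh10, Pcdhb3, Pcdhb7, Pcdhb10 and Pcdhb17 on their main probe sets. With all 18 arrays normalized together, Pcdh7 and Pcdhb7 kept the call in all 3. Under that setting Pcdh10, Pcdhb3, Pcdhb10 and Pcdhb17 lost it in empty vector cultures (limma adjusted p = 0.0715, 0.0828, 0.0677 and 0.292), and Pcdh10 and Pcdhb3 also in wild-type cultures (0.0687 and 0.155). The axonal minus somatodendritic difference of Pcdhb17 was -5.74 (SE 0.34) in knockdown, -1.37 (SE 0.34) in empty vector and -2.03 (SE 0.34) in wild-type cultures, with limma adjusted p of 1.1e-07, 0.00811 and 0.00135. As folds these were at least 4.45-fold in knockdown, 2.58-fold in empty vector and 4.08-fold in wild-type cultures, the last 2 measured on both sides. On its main probe set Pcdh10 was lower at least 6.18-fold in knockdown, 5.40-fold in empty vector and 8.18-fold in wild-type cultures (limma adjusted p = 0.000438, 0.00706 and 0.00617). The probe set of Pcdh10 that was above background on all 18 arrays ran the other way, with axonal minus somatodendritic differences of 1.49 (SE 0.36, limma adjusted p = 0.00292) in knockdown, 0.21 (adjusted p = 0.651) in empty vector and 0.16 (adjusted p = 0.74) in wild-type cultures. For Pcdh17, by contrast, the difference was -1.64 (SE 0.68, limma adjusted p = 0.048) in knockdown, 0.36 (adjusted p = 0.673) in empty vector and -1.59 (adjusted p = 0.0843) in wild-type cultures. Pcdh11x was not called in any of the 3 (differences of -1.57, -1.82 and -2.03, limma adjusted p = 0.193, 0.156 and 0.136). Its other probe set was called lower in all 3, with differences of -1.62, -1.46 and -1.69 (SE 0.46 each, limma adjusted p = 0.00769, 0.0217 and 0.0169 over all probe sets).

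Whether the knockdown difference itself differed between compartments was tested by an interaction over all 18 arrays, in which 4 of 35 protocadherins and 6.77% of all genes were called. This fit took 1 spread for both compartments, although axonal replicates lay farther apart, so its p-values rest partly on the tighter somatodendritic arrays. The standard deviation of Pcdhb20 in empty vector, for example, was 0.75 in axonal and 0.07 in somatodendritic arrays. On the axonal arrays alone, only Pcdhb17 was called against empty vector. For Pcdhb17 knockdown minus empty vector was -4.40 in axons and -0.03 in the SD compartment, an interaction of -4.37 (SE 0.48, limma adjusted p = 0.000417). For Pcdhb20 these were -4.80 in axons and 0.04 in the SD compartment, an interaction of -4.83 (SE 0.94, adjusted p = 0.0114). The axonal knockdown values of both were below background, so these sizes are not measured ones. Pcdhb14 had 1.58 in axons and -0.44 in the SD compartment, an interaction of 2.02 (SE 0.47, adjusted p = 0.0235). Pcdhb5, below background in all groups, had an interaction of 0.84 (SE 0.24, adjusted p = 0.0498). All 4 are clustered genes, and of the 12 non-clustered members limma called 0, with 2 at an unadjusted p under 0.05, where 22.3% of all genes were. Pcdh19 came nearest among them (-2.36, SE 0.71, adjusted p = 0.0601).

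**Figure D5:**
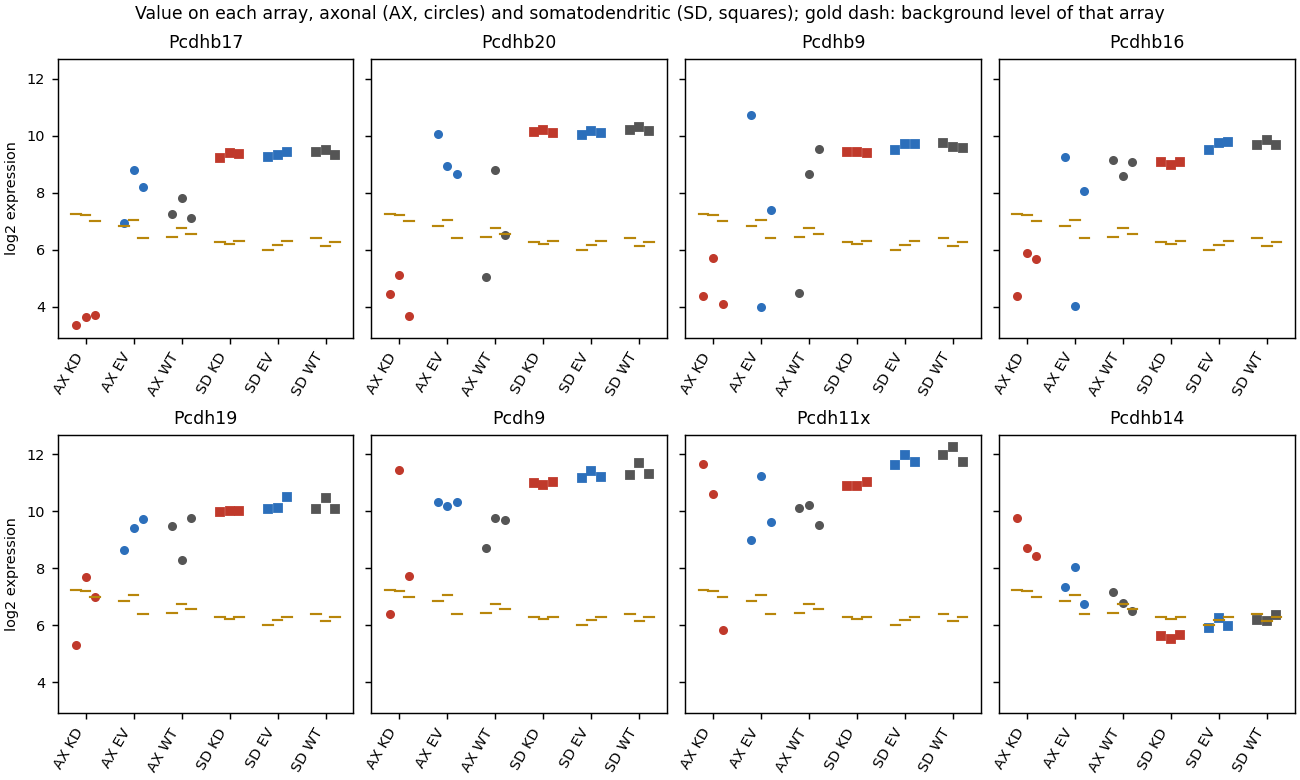
Log2 expression of 8 protocadherins on each axonal (circles) and somatodendritic (squares) array of Smn knockdown, empty vector and wild-type cultures; each gold dash is the background level of that array. Pcdhb17 and Pcdhb20 are near 9 to 10 on all somatodendritic arrays and below background on the 3 axonal knockdown arrays, and Pcdhb14 is highest on the axonal knockdown arrays.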

How the data were processed

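The authors deposited log2 expression values of 45101 probe sets on each of 18 Affymetrix whole-genome mouse arrays. RNA was amplified linearly in 2 rounds, per the labels' protocols. The software behind the log2 values was not given in the sources used here. Sorted values differed by at most 0.0048 among somatodendritic and 0.0125 among axonal arrays, so each compartment had been brought to its own common distribution.

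Of the probe sets, 34958 named 1 gene in the platform annotation, and each of 18191 genes was represented by its probe set of highest average signal, without a filter on dim signal. Control probe sets (64) and 11 with missing values were left out. Groups were compared in R 4.3.3 by limma 3.58.1 (functions lmFit and eBayes), and p-values were adjusted by Benjamini-Hochberg across all genes, on the 9 arrays of a compartment or, between compartments, on all 18. SE is limma's. A fold is "at least" where a group was not above background, with each array of that group set at the higher of its own value and its background level, and is left out where both were not or the bound was under 1. The fit was tested on simulated shifts.

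Members above background on all arrays of at least 1 group are given with every array, the rest by range. Members and lists were chosen with earlier results of these data known. Array number and signal over background limit the precision, in place of depth. Promoters are from RefSeq (GRCm38.p6), and 9 of the 35 members matched an entry by gene identifier.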

Additional observations from a re-analysis of the deposited data

Results flagged for a closer look

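The log2 difference of Smn knockdown against empty vector differed between the axonal and the somatodendritic compartment for 4 clustered protocadherins. They were called by limma's interaction test over all 18 arrays, which took 1 spread for both compartments although axonal replicates lay farther apart. For Pcdhb17 the interaction was -4.37 and for Pcdhb20 it was -4.83, both from probe sets that were lower on the axonal knockdown arrays and overlapped between the somatodendritic groups. The axonal knockdown values of both were below background (7.01 to 7.26), so these sizes are not measured ones. For Pcdhb20 the axonal knockdown arrays also overlapped with axonal wild-type (limma adjusted p = 0.182). For Pcdhb14 it was 2.02 and for Pcdhb5 0.84, and Pcdhb5 was above background in no group. The Pcdhb14 call was lost without any 1 of the 6 somatodendritic knockdown and empty vector arrays (adjusted p between 0.0505 and 0.0666). The Pcdhb5 call was lost without any of 10 of the 12 arrays compared (all but axonal knockdown replicate 2 and axonal empty vector replicate 2).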

How the results depend on the processing

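Over the 82 results for single named members, 575 alternative values kept direction and side of the threshold, 151 kept direction but missed the threshold, and 3 reversed. The reversed ones came from taking the mean of all probe sets of a gene, which gave 0.25 for Pcdh9 in somatodendritic knockdown against wild-type, and 0.32 for Pcdh18 and 0.40 for Pcdhb15 in axonal against somatodendritic knockdown arrays. The same setting called 11 members instead of 7 in somatodendritic knockdown against empty vector and 0 instead of 1 in empty vector against wild-type. With all 18 arrays in 1 fit, the somatodendritic counts were 0 in all 3 comparisons, and the axonal ones were 7 against empty vector and 9 against wild-type; of all genes, 103 instead of 5088 were called in somatodendritic knockdown against empty vector. With only genes above background in a compared group, axonal knockdown had 2 members called against either control, and axonal against somatodendritic arrays had 18 in knockdown and 7 in empty vector cultures. With all 18 arrays normalized together, axonal against somatodendritic counts were 4 in empty vector and 5 in wild-type cultures. Without probe sets of suffix _s, _x or _a the interaction had 2. Without axonal knockdown replicate 1 and axonal empty vector replicate 2, an alternative chosen after the data were seen, axonal knockdown had 0 against either control and the interaction 7.

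Leaving out 1 array at a time gave 5 to 10 members in somatodendritic knockdown against empty vector, 11 to 14 against wild-type and 0 to 3 in empty vector against wild-type. In axons these were 0 to 2, 0 to 1 and 0 to 0. Between compartments they were 24 to 26 in knockdown, 8 to 15 in empty vector and 8 to 11 in wild-type cultures, and 2 to 8 for the interaction. The cause of these changes was not tested. Of 18 correlations of same-numbered control arrays, 1 exceeded 0.1 (range -0.19 to 0.23), so no pairing by array number was detected. With 3 arrays per group this cannot exclude a pairing, and the main tests took the arrays as unpaired. With the number as a replicate block, empty vector against wild-type had 1 member called in the somatodendritic and 0 in the axonal compartment, and axonal against somatodendritic arrays had 14 in empty vector and 13 in wild-type cultures. Knockdown titles carry other numbers, so no block was fitted for them. Where a member was below background in axons, its difference is not a measured size.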
